A study of Mus musculus with 24 samples.

Results

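Termination-site peaks are regions of open chromatin that the deposited peak annotation places at the transcription termination site (TTS, the end of a transcript) of a gene and that lie more than 1000 bp from the nearest transcription start site (TSS). Of 150646 consensus peaks, 5325 (3.53%) met this rule, which used position and no measured accessibility. They belonged to 4293 genes, since 671 genes had 2 such peaks and 156 genes had 3 or more. A further 829 TTS peaks lay within 1000 bp of a TSS and were not members.

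The peaks came from ATAC-seq of epithelium of the small intestine, taken from C57BL/6JRj mice that were young or aged, with cells sorted as EpCam+ and CD45- after digestion with EDTA and trypsin, with 17 PCR cycles per library. Each age had 3 libraries, aged 1, 2 and 4 and young 1, 2 and 4, each sequenced on 4 lanes, and both ages shared strain, sort and protocol. The labels give no age in months, no sex and no genotype beyond the strain. The series' design text gives 2 to 3 months for young and 20 to 22 months for aged mice, but it describes ATAC-seq of organoids, whereas the labels of these libraries describe cells taken directly from the intestine. Whether the 3 libraries of an age stand for 3 mice is not stated, and a p-value here covers only variation among libraries, which may be technical.

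ATAC-seq uses the Tn5 transposase, which cuts DNA where it is not packed into nucleosomes, so that reads pile up over promoters, enhancers and other accessible sites. At the end of a gene the transcript is cleaved and polyadenylated and RNA polymerase II is released further on. Open chromatin there can belong to the end of the gene itself, to an enhancer, or to the start of another transcript that begins beside it.

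A small set of members lay over or beside an annotated start, and the bases before some of these starts are shown to describe the sequence there. A start annotated by RefSeq (the window from 250 bases before it to 50 after) overlapped 47 of the 5325 members (0.883%), against 5.78% of exon peaks, 0.888% of intron peaks and 1.55% of intergenic peaks more than 1000 bp from a TSS. Those 47 members had a median of 8.58 CPM (read counts scaled by TMM library size), and the other 5278 had 1.86 CPM. Of the 46 tested between ages, 2 (4.35%) were called, both higher in aged libraries, against 1.6% of all tested peaks. The 250 bases before the start are printed for 4 members, 5′ to 3′ on the strand of the starting transcript, from RefSeq (GRCm38.p6), with bases inside the peak in capitals. The first is the called member that lies before C230062I16Rik, a non-coding RNA, at chr7:29956075-29956324 on the plus strand. The others are the members with the highest accessibility whose window lay outside annotated protein-coding genes: before Smdt1, a subunit of the mitochondrial calcium uniporter (chr15:82345796-82346045, plus strand), before Rbm15b, an RNA-binding protein (chr9:106887076-106887325, minus strand), and before the non-coding Gm34157 (chr9:61370491-61370740, minus strand).
C230062I16Rik: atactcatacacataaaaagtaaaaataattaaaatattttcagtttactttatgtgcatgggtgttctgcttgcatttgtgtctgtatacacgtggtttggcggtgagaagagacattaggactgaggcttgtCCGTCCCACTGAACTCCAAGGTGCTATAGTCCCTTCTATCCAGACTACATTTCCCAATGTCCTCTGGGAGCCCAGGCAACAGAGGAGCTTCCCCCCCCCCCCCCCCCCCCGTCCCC
Smdt1: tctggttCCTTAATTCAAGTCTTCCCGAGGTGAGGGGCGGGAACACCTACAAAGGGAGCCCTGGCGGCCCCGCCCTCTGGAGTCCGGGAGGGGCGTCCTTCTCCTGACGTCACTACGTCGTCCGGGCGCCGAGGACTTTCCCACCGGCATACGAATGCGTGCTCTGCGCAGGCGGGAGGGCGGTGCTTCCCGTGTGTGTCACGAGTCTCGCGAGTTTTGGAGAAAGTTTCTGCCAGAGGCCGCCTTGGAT
Rbm15b: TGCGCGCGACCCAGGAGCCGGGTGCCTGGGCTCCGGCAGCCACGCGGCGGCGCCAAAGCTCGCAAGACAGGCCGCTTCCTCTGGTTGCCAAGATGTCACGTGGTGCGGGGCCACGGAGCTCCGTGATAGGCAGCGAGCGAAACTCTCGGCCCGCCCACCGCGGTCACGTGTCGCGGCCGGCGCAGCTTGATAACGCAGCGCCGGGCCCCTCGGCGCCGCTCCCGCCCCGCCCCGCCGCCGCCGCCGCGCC
Gm34157: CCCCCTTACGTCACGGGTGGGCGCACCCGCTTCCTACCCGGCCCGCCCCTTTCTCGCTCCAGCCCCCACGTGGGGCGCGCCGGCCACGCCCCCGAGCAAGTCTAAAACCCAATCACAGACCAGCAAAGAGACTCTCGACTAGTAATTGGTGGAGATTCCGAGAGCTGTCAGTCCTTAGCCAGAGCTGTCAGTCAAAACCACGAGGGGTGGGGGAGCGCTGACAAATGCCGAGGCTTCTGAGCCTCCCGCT
Guanine and cytosine made up 48% of the window before C230062I16Rik, 63.2% before Smdt1, 76% before Rbm15b and 63.2% before Gm34157, against a median of 52.4% over 32851 RefSeq windows of the same 250 bases. The dinucleotide CG occurred 4 times before C230062I16Rik, 23 times before Smdt1, 40 times before Rbm15b and 19 times before Gm34157, with a median of 6 over all windows. The hexamer GGGCGG (a GC box, searched on both strands) occurred 3 times before Smdt1, 3 times before Rbm15b, once before Gm34157 and not before C230062I16Rik, and 32.7% of all windows held it. The hexamer AATAAA (a polyadenylation signal, both strands) was in none of the 4 windows and in 18.1% of all. Each of the 3 windows chosen for high accessibility held more CG than the window before C230062I16Rik. Their peaks had 58.2, 43.3 and 24.7 CPM, against 2.43 CPM at C230062I16Rik, so the windows differ in accessibility as well as in the call. The window of the other called member, at Lrp11 beside the start of Gm16254, is not printed. A link between CG content and age was not tested. The peak covered only 116 of the 250 bases before C230062I16Rik, against 243 before Smdt1 and all 250 before Rbm15b and Gm34157. These values therefore describe the windows and not the peaks. A match is a description of these letters and not of a bound factor.

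The shallowest library, young 4, held 6149680 counts and the deepest, aged 2, held 23935291. Young 4 had 0 counts in 114 members, against 7 to 24 in the other libraries. Promoter peaks were present at 10 of 12 epithelial marker genes (all but Vil1 and Krt19), with a summed 379 to 416 CPM in aged and 390 to 449 CPM in young libraries. A promoter peak was credited only to the gene with the nearest TSS, so one credited to an adjoining gene is missed. None of 13 leukocyte marker genes, Ptprc among them, had a promoter peak, and 5 of 14 marker genes of stroma, endothelium, nerve and muscle did, with a sum of 17.4 to 18.2 CPM in aged and 16.7 to 19.4 CPM in young libraries. The part of these other cells in the results was not tested.

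Members were narrow and of moderate accessibility. Their median width was 200 bp (71 to 1552 bp), against 223 bp over all peaks, and their median accessibility was 1.88 CPM, against 2.06 CPM. The genes they ended were mostly protein-coding (4313 members, 81%), followed by long intergenic non-coding RNAs (296), antisense RNAs (228) and processed pseudogenes (124). The nearest TSS lay a median of 6337 bp away (1001 to 427440 bp), upstream of the peak for 72.9% of members, and it was the start of the same gene for 56.3%. At the edge of the distance rule, the 3 nearest members inside it, at the ends of Gm26008, Mir196a-1 and Gm7418, had 32.4, 1.82 and 5.26 CPM in aged and 34.8, 1.2 and 5.78 CPM in young libraries. The 3 nearest peaks outside it, at RP23-348H21.1, Rpl10-ps2 and Mir7033, had 13.7, 2.72 and 0.27 CPM in aged and 15.7, 2.31 and 0.408 CPM in young libraries.

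Many members did not lie at the end of the gene as RefSeq draws it. The annotation marks the end of any transcript of a gene, and for 3582 members the gene's span and strand were available from RefSeq by symbol. The peak's midpoint was within 100 bases inside to 1000 bases beyond the 3′ end of the RefSeq gene for 1393 members, further inside the gene for 2065, further beyond the end for 119 and before the start for 5. The median offset was -926 bases, with quartiles of -9405 and 435 bases. The peaks inside a gene had a median of 1.82 CPM and those at the 3′ end 2.06 CPM. These position classes were chosen after the values were seen. Members with no usable RefSeq match numbered 1743.

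**Figure D1:**
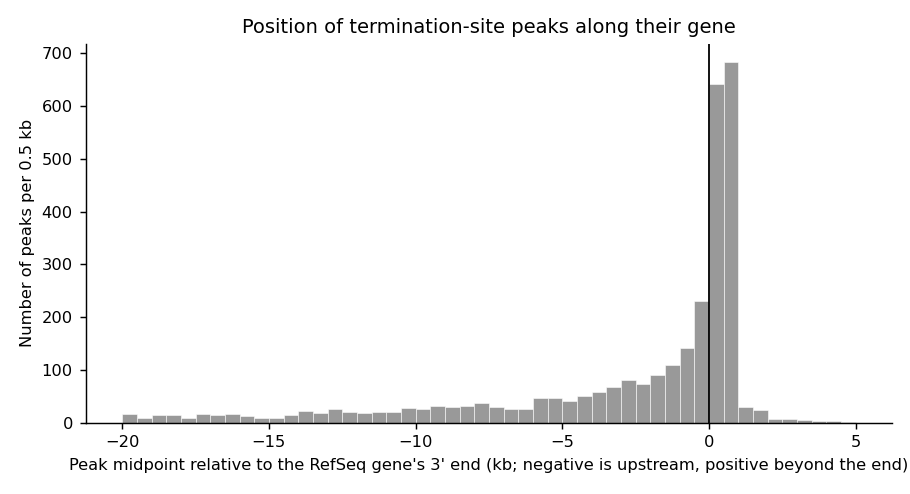
Number of termination-site peaks (vertical axis, per bin of 0.5 kb) by the distance of the peak's midpoint from the 3′ end of its RefSeq gene (horizontal axis, kb, negative inside the gene). Of 3582 peaks with a position, 3013 lie in the window shown, 533 lie further upstream and 36 further beyond the end; the tallest bin holds 683 peaks and starts 0.5 kb beyond the end.

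Accessibility per kb of peak was compared with the other annotation classes over the 6 libraries, with exact two-sided sign-flip tests on log2 medians and Benjamini-Hochberg adjustment over 5 classes. An offset of 0.1 was added to CPM in these class medians, which raises them. The members' median was 9.06, 9.36 and 9.86 CPM per kb in aged 1, 2 and 4 and 9.01, 9.20 and 9.96 CPM per kb in young 1, 2 and 4. It was above that of intron peaks by 1.07-fold and above that of intergenic peaks by 1.12-fold, in 6 of 6 libraries each. Promoter peaks were 2.41-fold above the members, and TTS peaks within 1000 bp of a TSS were 1.14-fold above them, again in 6 of 6 libraries. Each of these 4 tests gave an exact p of 0.0312, the smallest that 6 libraries allow, and an adjusted p of 0.0391. All libraries measured the same peaks, so these p-values cover variation among libraries and not among peaks. Against exon peaks the log2 difference was 0.01 ± 0.02 (SD, n = 6), higher in 4 of 6 libraries (exact p = 0.406). Without the offset, and on mean CPM over the 6 libraries, the median was 8.69 CPM per kb for members and 8.76 CPM per kb for exon peaks. Per peak rather than per kb the members fell below exon peaks by 0.09 on the log2 scale in 6 of 6 libraries (exact p = 0.0312), so the order of these classes depended on the scale.

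**Figure D2:**
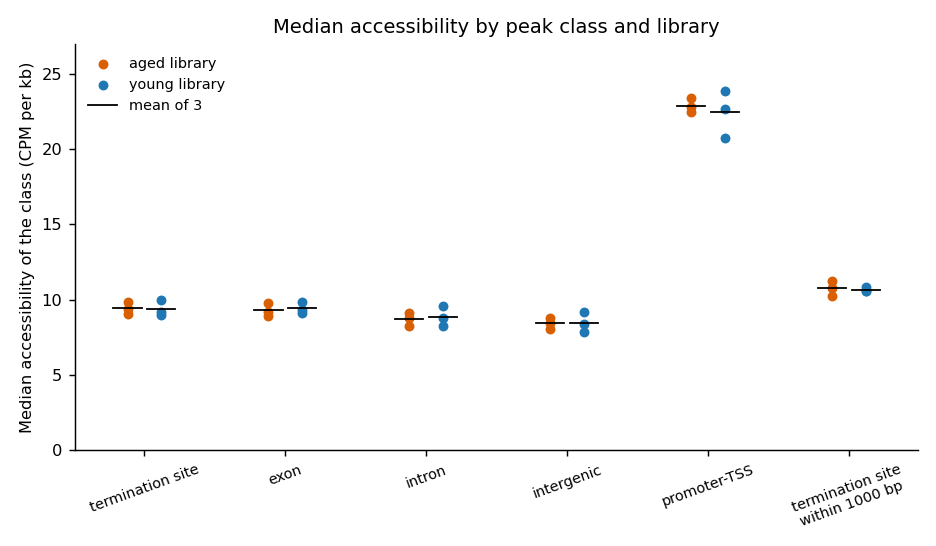
Median accessibility (vertical axis, CPM per kb of peak, with an offset of 0.1 added to CPM) of each peak class in each library, orange for aged and blue for young, with black bars for the mean of 3. Termination-site peaks lie at 9.01 to 9.96 CPM per kb, beside exon peaks and well below promoter peaks at 20.8 to 23.9 CPM per kb.

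The class as a whole took a similar share of counts at both ages. Members took 2.63%, 2.65% and 2.72% of the counts in aged 1, 2 and 4. In young 1, 2 and 4 they took 2.58%, 2.65% and 2.68%. The ranges overlapped. The means were 2.67% ± 0.0513 in aged and 2.64% ± 0.0537 in young libraries (SD, n = 3), a difference of 0.0298 percentage points (exact two-sided permutation p = 0.6, where 3 against 3 libraries cannot go below 0.1).

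The age comparison asked which peaks were more or less open in aged epithelium. Of 5325 members, 4511 (84.7%) had enough counts to be tested, and most showed little difference: 97.1% of them were within 2-fold, and their median log2 fold change, aged over young, was 0.01, against 0.00 over all 129588 peaks tested. With edgeR's quasi-likelihood test, 95 members (2.11%) passed a Benjamini-Hochberg adjusted p of 0.05, against 1.6% of all tested peaks. Of these, 61 members (1.35%) were higher in aged libraries, where the share of all tested peaks was 1.07%, and 34 (0.754%) were lower, where it was 0.528%. These shares were close to the background, and no test set the members against other peaks. The called members were at 61 and 32 genes, since Ccdc86 and Prdm13 each had 2 lower peaks. Higher members had a median log2 fold change of 1.24 (0.52 to 3.17) and lower ones of -1.58 (-4.41 to -0.51), and 41 and 26 of them differed by more than 2-fold. Values of the 2 ages were fully apart in 60 of the 61 higher members, all but the one at Met, and in 34 of the 34 lower ones; this held for 15.3% of tested members and in 13.9% of all tested peaks. In bulk cells a change in the share of a cell type cannot be told apart from a change in accessibility per cell.

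The count of higher members varied with the libraries and the test: it was 34 without aged 4 and 30 without young 2, and DESeq2 called 33. A fit without a library also has fewer libraries to test with, and what lowered the count was not tested. With the replicate number as a block it rose to 117 higher and 52 lower, and the 95 members called without the block were all among them.

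**Figure D3:**
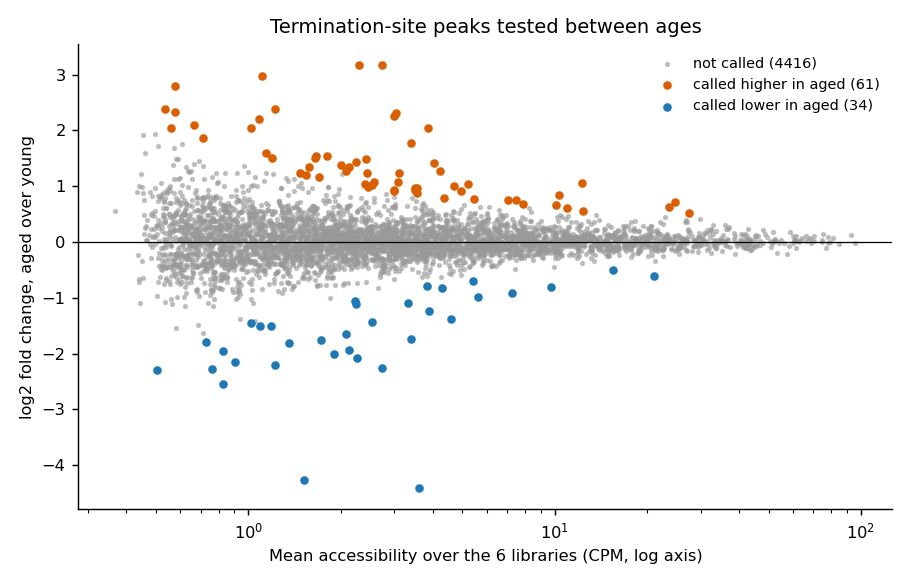
Log2 fold change between ages (vertical axis) against mean accessibility over the 6 libraries (horizontal axis, CPM, log scale) for 4511 tested termination-site peaks. Orange points are the 61 called higher in aged libraries, blue points the 34 called lower and grey points the rest; the blue points at -4.41 and -4.27 are the peaks of Lpar5 and Tradd.

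Calls were spread over the class. At the 3′ end of a RefSeq gene 23 of 1184 tested members (1.94%) were called (16 higher, 7 lower), and inside a gene 38 of 1761 (2.16%; 20 higher, 18 lower). The share was 2.11% over all tested members and 1.6% over all tested peaks (1.07% higher, 0.528% lower). Protein-coding genes carried 85 of the 95 calls, but they also held 3639 of the 4511 tested members, of which 2.34% were called. In 4 bins of equal size by mean accessibility, from the lowest to the highest, 1.6%, 2.57%, 2.93% and 1.33% of the members were called.

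The peaks that were lower in aged libraries included those with the largest differences. The members described next, lower and then higher, were chosen among called peaks without overlap of the ages, so their lack of overlap is not separate support. The peak of Lpar5, a receptor for lysophosphatidic acid, at chr6:125081849-125082136 had 0.431, 0.167 and 0.341 CPM in aged 1, 2 and 4 and 5.31, 5.4 and 10 CPM in young 1, 2 and 4. Every young library was above every aged one by more than the spread within either age. Its mean was 22.1-fold higher in young libraries, with a log2 fold change of -4.41 ± 0.33 (SE; edgeR quasi-likelihood test, adjusted p = 1.64e-10). It lay 4136 bases inside the RefSeq 3′ end, and none of its 8 tested neighbours within 10000 bp was called.

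The peak of Tradd, an adaptor of the tumour necrosis factor receptor, at chr8:105259728-105259936 had 0.0616, 0.125 and 0.284 CPM in aged 1, 2 and 4, which were 1, 3 and 5 counts. The young libraries had 4.44, 2.77 and 1.43 CPM, so young 4 was the lowest of them and still above the aged libraries. The log2 fold change was -4.27 ± 0.44 (edgeR quasi-likelihood test, adjusted p = 1.29e-07), and the 9 tested neighbours included no called peak. Hmces, which binds damaged sites in single-stranded DNA, had a peak at chr6:87937422-87937773 beyond its 3′ end. It measured 0.555, 1.17 and 0.909 CPM in aged and 4.12, 3.71 and 5.89 CPM in young libraries, again without overlap. Its log2 fold change was -2.26 ± 0.27 (edgeR quasi-likelihood test, adjusted p = 1.91e-06).

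Ttc3, a ubiquitin ligase, had a peak at chr16:94449260-94449982, 19601 bases inside the gene's end. It measured 1.6, 1.8 and 1.14 CPM in aged and 5.17, 4.36 and 6.37 CPM in young libraries, a log2 fold change of -1.74 ± 0.23 (edgeR quasi-likelihood test, adjusted p = 9.57e-06). The ages were well apart, and the 1 tested neighbour was also called lower. At Plcxd1, of the phospholipase C family, the peak at chr5:110101730-110101936 had 0.616, 0.794 and 0.852 CPM in aged and 3.48, 2.62 and 3.03 CPM in young libraries. All young libraries were several times above the aged ones, with a log2 fold change of -2.0 ± 0.28 (edgeR quasi-likelihood test, adjusted p = 2.72e-05). Here 3 of 9 tested neighbours were called lower as well. The peak of Inpp5f, an inositol phosphatase, at chr7:128672398-128672815 had 1.97, 2.3 and 3.07 CPM in aged and 5.31, 6.19 and 8.76 CPM in young libraries. The highest aged library was below the lowest young one, and the log2 fold change was -1.39 ± 0.22 (edgeR quasi-likelihood test, adjusted p = 9.72e-05).

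Shroom1 (an actin-binding family), Ccdc86, Sept5 (a septin, part of a cytoskeletal filament), Trpt1 (an enzyme that acts on tRNA), Setd3 (a methyltransferase that modifies actin) and Prdm13 (a zinc finger factor of developing neurons) completed the 12 lower members with the smallest p-values. Shroom1's peak measured 0.493, 0.376 and 0.511 CPM in aged and 2.15, 2.53 and 1.27 CPM in young libraries (log2 fold change -2.21 ± 0.35). At Ccdc86 the values were 0.863, 0.418 and 1.36 CPM in aged and 3.07, 3.07 and 3.98 CPM in young libraries (-1.94 ± 0.31). The ages did not overlap at either peak. Ccdc86 had another called member beside it, far more open, at 16.7 CPM in aged and 25.4 CPM in young libraries on average (-0.61 ± 0.12, edgeR quasi-likelihood test, adjusted p = 0.00325).

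Sept5's peak had 0.863, 1.09 and 1.08 CPM in aged and 3.75, 2.82 and 2.87 CPM in young libraries (log2 fold change -1.65 ± 0.27). Trpt1's had 0.801, 0.71 and 0.909 CPM and 2.43, 3.27 and 2.23 CPM (-1.75 ± 0.29). Both were below in every aged library. For Setd3 the values were 1.11, 1.13 and 0.227 CPM in aged and 2.61, 4.06 and 4.46 CPM in young libraries (-2.08 ± 0.33), with aged 4 the lowest. Prdm13 had 0.555, 0.627 and 0.625 CPM in aged and 2.24, 2.18 and 1.91 CPM in young libraries (-1.82 ± 0.31), with little spread within either age. Prdm13's other called member, beside it, fell by 1.5 on the log2 scale (SE 0.34). Adjusted p-values of these 12 lower members ran from 1.64e-10 to 0.000439 in edgeR's quasi-likelihood test.

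Among the higher members the smallest p-value was at Zscan5b, a gene for a SCAN-domain zinc finger protein. Its peak, chr7:6239765-6240123, had 4.25, 3.59 and 4.66 CPM in aged and 0.275, 0.693 and 0.318 CPM in young libraries. Aged libraries were 9.72-fold higher on average and far outside the young range, with a log2 fold change of 3.17 ± 0.31 (edgeR quasi-likelihood test, adjusted p = 4.41e-08). Morn1, which codes for a protein of MORN repeats, had a peak at chr4:155129911-155130431 with 4.81, 4.89 and 5.74 CPM in aged and 1.19, 0.99 and 0.637 CPM in young libraries. The difference was several times the spread within an age (log2 fold change 2.32 ± 0.24; edgeR quasi-likelihood test, adjusted p = 1.3e-07). It lay 15336 bases inside the RefSeq gene, and none of 5 tested neighbours was called.

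St3gal2 adds sialic acid to galactose on glycans. The peak at its annotated end, chr8:110957581-110957855, had 3.2, 4.47 and 6.76 CPM in aged and 0.366, 0.495 and 1.11 CPM in young libraries, and the spread was widest among the aged ones. Its log2 fold change was 3.17 ± 0.34 (edgeR quasi-likelihood test, adjusted p = 2.31e-07). Rnf122, a membrane-bound ubiquitin ligase, had a peak at chr8:31122425-31122739 with 4.44, 4.51 and 5.85 CPM in aged and 1.1, 0.842 and 1.27 CPM in young libraries. The log2 fold change was 2.26 ± 0.25 (edgeR quasi-likelihood test, adjusted p = 3.14e-07), and the ages were clearly apart. Slc48a1 carries heme across membranes. Its peak at chr15:97789659-97790113 had 5.24, 5.39 and 7.89 CPM in aged and 1.42, 1.44 and 1.75 CPM in young libraries (log2 fold change 2.05 ± 0.23; edgeR quasi-likelihood test, adjusted p = 4.38e-07). The 3 young values were nearly equal. A neighbouring Slc48a1 member had 2.31 CPM in aged and 2.37 CPM in young libraries (-0.10 ± 0.25) and was not called.

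Zscan10, a zinc finger factor known from pluripotent cells, had the most accessible of these higher peaks, at chr17:23610482-23610865. It measured 16.3, 15.2 and 18.4 CPM in aged and 8.15, 7.73 and 8.28 CPM in young libraries, 2.06-fold higher in aged (log2 fold change 1.05 ± 0.14; edgeR quasi-likelihood test, adjusted p = 7.71e-06). This smaller change was measured on more counts than the others, and the groups were well separated. Got1, the cytosolic aspartate aminotransferase, had a peak 626 bases beyond its 3′ end with 5.12, 4.09 and 6.7 CPM in aged and 1.65, 1.54 and 1.27 CPM in young libraries (1.77 ± 0.24). Its ages did not overlap.

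The last 4 were at 2310022B05Rik, Plbd2 (a lysosomal protein of the phospholipase B family), Foxp4 (a forkhead transcription factor) and the gene ENSMUSG00000063623, whose symbol the deposited table does not pair with its identifier. The peak of 2310022B05Rik measured 5.79, 5.6 and 6.64 CPM in aged and 2.79, 2.18 and 2.39 CPM in young libraries (log2 fold change 1.28 ± 0.20). Plbd2's had 5.24, 5.56 and 6.59 CPM and 1.46, 2.67 and 2.71 CPM (1.41 ± 0.22), and its 1 tested neighbour was also called higher. Foxp4's had 2.03, 2.3 and 2.04 CPM in aged and 0.366, 0.594 and 0 CPM in young libraries (2.38 ± 0.38). Young 4, the shallowest library, had no count there. ENSMUSG00000063623 had 3.08, 3.18 and 4.49 CPM and 1.1, 1.44 and 1.27 CPM (1.49 ± 0.26), at the peak that covers part of the printed bases before C230062I16Rik. Adjusted p-values of the 11 higher members described ran from 4.41e-08 to 0.000486 in edgeR's quasi-likelihood test, and each of the 23 described in both directions kept its call under every alternative run.

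**Figure D4:**
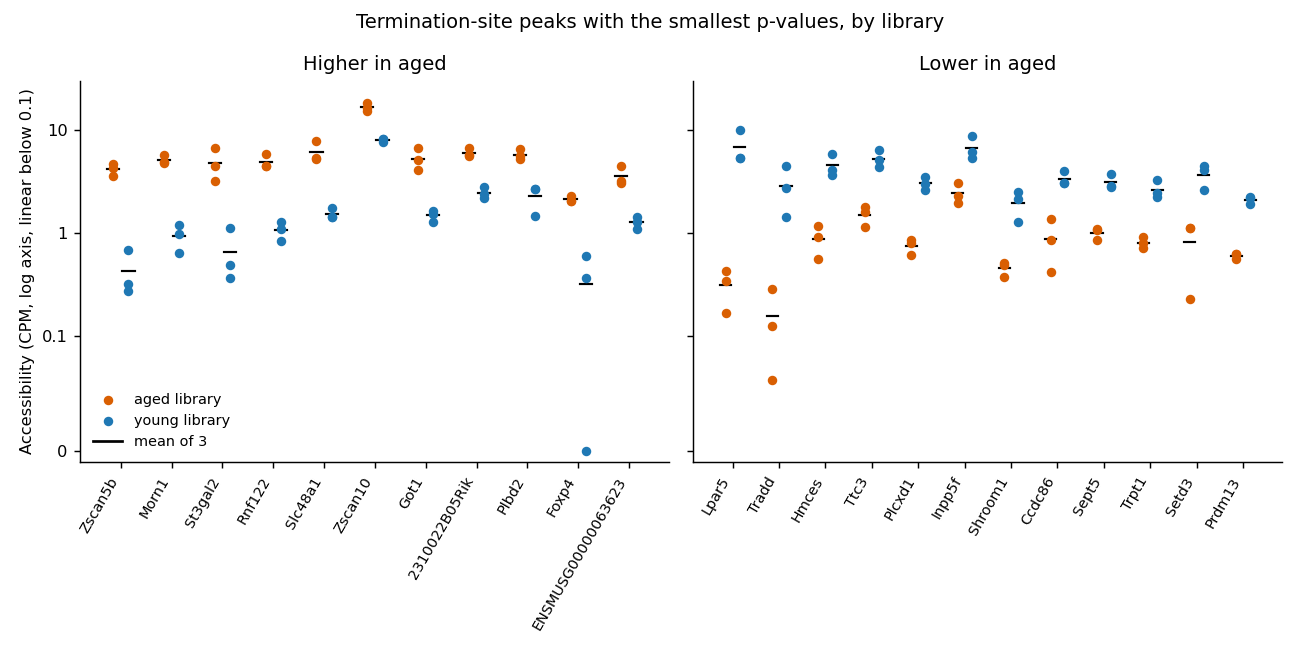
Accessibility (vertical axis, CPM, log scale, linear below 0.1) of 11 higher and 12 lower termination-site peaks, from those with the smallest p-values among the peaks without overlap. Orange points are aged and blue points young libraries, with black bars for means of 3; the ages are apart at each gene, and Foxp4 has 0 CPM in 1 young library.

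Peaks beside a called member were called in its direction at a larger share than all tested peaks, although most called members had no called neighbour. Within 10000 bp of the 61 higher members there were 242 tested peaks of any class, of which 12 (4.96%) were called, all of them higher, against 1.07% of all tested peaks, and 52 of the 61 had no called neighbour in their direction. Around the 34 lower members, 15 of 131 tested peaks (11.5%) were called, all of them lower, against 0.528% of all tested peaks, and 23 of 34 had none. Neighbours include other members, a peak near several members counts for each, and the difference from the background was not tested.

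The promoters of the same genes seldom moved with them. A promoter peak (within 1000 bp of a TSS of the gene, with that TSS the nearest) was tested for 31 of the higher members and 20 of the lower ones. Their median log2 fold change was 0.03 and -0.05. Only 2 of these promoters were called, 1 beside a higher and 1 beside a lower member, each in the direction of its member. The lower one was at Plcxd1. The Plcxd1 promoter had 2.34 ± 0.163 CPM in aged and 4.26 ± 1.35 CPM in young libraries (SD, n = 3), a log2 fold change of -0.96 ± 0.22 (edgeR quasi-likelihood test, adjusted p = 0.013). By contrast the Lpar5 promoter had 36.4 ± 3.25 CPM in aged and 36.2 ± 2.39 CPM in young libraries (0.00 ± 0.11 on the log2 scale). The Lpar5 member, 4136 bases inside the RefSeq 3′ end, differed 22.1-fold. At Tradd the promoter had 14.3 ± 0.963 and 12.5 ± 1.5 CPM (0.16 ± 0.13), and at Rnf122 32.5 ± 3.3 and 28.9 ± 1.75 CPM (0.16 ± 0.12).

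Over all 2621 tested members with a tested promoter peak of the same gene, the 2 log2 fold changes had a Pearson correlation of 0.0657 (Spearman 0.0868), and the 2 levels one of 0.0526. This describes 2621 peaks at 2123 genes measured in the same libraries, and some genes enter more than once. The median promoter peak had 16.6 CPM and the median member 2.6 CPM, and the member was the more accessible of the pair in 20.2%.

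The most accessible members showed no called age difference. The peak at the end of Gm11175 had 106, 93.7 and 88.1 CPM in aged and 109, 93.4 and 85.5 CPM in young libraries. Evl, an actin regulator of the Ena/VASP family, had 97.9, 90.7 and 103 CPM and 90.8, 89.1 and 86.8 CPM. Ages overlapped at both of these peaks. Rbbp8nl had 84.9, 81.9 and 82.7 CPM in aged and 82.9, 78.1 and 75.6 CPM in young libraries. Acvrl1, a receptor of the TGF-beta family, had 86.9, 72.6 and 78.1 CPM and 83.3, 75.1 and 79.1 CPM. Mnt, a partner of Max and antagonist of Myc, had 79.8, 78.6 and 75.6 CPM and 88.9, 77.5 and 68.3 CPM. The largest log2 fold change among these 5 was 0.13 ± 0.10, at Evl, and their adjusted p-values in edgeR's quasi-likelihood test were 0.872 or more.

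Genes of 13 functional lists were looked up among the members by the gene that ended there. The lists matched 257 members at 197 genes, of which 222 were tested and 5 called (2.25%, against 1.6% of all tested peaks), 4 higher and 1 lower. The median log2 fold change of those tested was 0.01. Calls occurred in 5 lists, 1 in each.

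Among the brush border and nutrient transport genes, 1 of 22 tested members was called, as lower. It was the peak of Slc2a5, the fructose transporter, 270 bases beyond the 3′ end. It had 15, 12.7 and 11 CPM in aged and 19.3, 18.6 and 16.7 CPM in young libraries, without overlap (log2 fold change -0.51 ± 0.13; edgeR quasi-likelihood test, adjusted p = 0.0363). Slc2a5 lost its call without aged 2 (adjusted p = 0.131), aged 4 (0.269), young 1 (0.135) or young 2 (0.213) in edgeR's quasi-likelihood test. Espn, an actin bundler of microvilli, had a mean of 1.57 CPM in aged and 2.66 CPM in young libraries (-0.73 ± 0.26) and Slc7a9, an amino acid transporter, had 14.5 and 11.2 CPM (0.37 ± 0.15), neither past the threshold.

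Crypt stem cell, Wnt and Notch genes had 1 of 15 tested members called, as higher. At Lrp5, a co-receptor for Wnt, the peak had 0.74, 1.55 and 1.08 CPM in aged and 0.32, 0.297 and 0 CPM in young libraries, so the ages did not overlap (2.10 ± 0.48; edgeR quasi-likelihood test, adjusted p = 0.0124). Its call was lost without aged 2 (edgeR quasi-likelihood test, adjusted p = 0.149) or young 2 (0.0664). Notch2 had 3.52 and 2.16 CPM (0.75 ± 0.23) and Myc 3.24 and 3.8 CPM (-0.28 ± 0.21) in aged and young libraries, neither called, although Notch2 passed with the replicate block (edgeR quasi-likelihood test, adjusted p = 0.0401).

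For secretory and tuft cell genes 1 of 12 tested members was called, as higher, at Pla2g2a. This gene of the phospholipase A2 family is listed by the deposited annotation as a polymorphic pseudogene, and whether these mice make the enzyme was not tested. The called peak had 3.14, 2.55 and 2.78 CPM in aged and 1.1, 0.842 and 2.07 CPM in young libraries, with young 4 nearest to the aged range (1.27 ± 0.29; edgeR quasi-likelihood test, adjusted p = 0.0105). Without aged 1, young 1 or young 2 the edgeR quasi-likelihood test gave an adjusted p of 0.051, 0.0532 and 0.22. A neighbouring Pla2g2a member had 1.11 and 0.484 CPM (1.07 ± 0.39) and was not called. Sh2d6, an adaptor of tuft cells, had 40 and 32 CPM (0.30 ± 0.12) and was called only with the replicate block (edgeR quasi-likelihood test, adjusted p = 0.00602).

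Immediate early, stress and clock genes had 1 of 17 tested members called, as higher, at Atf3, a stress-induced transcription factor. It had 4.13, 6.89 and 5.34 CPM in aged and 3.11, 3.12 and 3.5 CPM in young libraries, and every aged value was above the young ones (0.79 ± 0.21; edgeR quasi-likelihood test, adjusted p = 0.0379). Without aged 2, aged 4, young 1 or young 2 the edgeR quasi-likelihood test gave adjusted p = 0.31, 0.0757, 0.115 and 0.226. A neighbouring Atf3 member had 11.7 CPM in aged and 10.4 CPM in young libraries (0.18 ± 0.15) and was not called. Fosb, an AP-1 subunit, had 6.22 and 3.88 CPM (0.66 ± 0.19) and Xbp1, a factor of the unfolded protein response, 1.73 and 0.829 CPM (0.97 ± 0.31) in aged and young libraries. Neither was called, but Fosb passed without aged 2 (edgeR quasi-likelihood test, adjusted p = 0.0338) and with the replicate block (0.0266).

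Of the junction, adhesion, keratin and matrix genes, 1 of 19 tested members was called, as higher. Pkp3, a desmosomal plaque protein, had 6.41, 4.01 and 8.23 CPM in aged and 3.52, 2.23 and 3.82 CPM in young libraries; the lowest aged value was just above the highest young one (1.0 ± 0.24; edgeR quasi-likelihood test, adjusted p = 0.0215). Without aged 1, aged 4 or young 2 the edgeR quasi-likelihood test gave adjusted p = 0.0741, 0.222 and 0.272. DESeq2 called none of the 5 list members at Slc2a5, Lrp5, Pla2g2a, Atf3 and Pkp3, with adjusted p from 0.0529 to 0.161.

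The other 8 lists had 0 called members in edgeR's quasi-likelihood test: 11 tested for lipid absorption, 11 for xenobiotic metabolism, 23 for intestinal transcription factors, 26 for immune genes, 6 for cell cycle and DNA repair, 16 for chromatin regulators, 14 for ribosomal and respiratory chain genes and 31 for symbols starting Zfp. The last list includes Zfp286it, a non-coding RNA. Over the 138 tested members of these 8 lists, 9 had an unadjusted p below 0.05 in that test (4 with higher and 5 with lower values in aged libraries). Among all 4511 tested members, 454 did. DESeq2 called 0 of the 138. Tnf, the inflammatory cytokine, had 11.9 CPM in aged and 8.96 CPM in young libraries (0.48 ± 0.15) and passed without young 4 (edgeR quasi-likelihood test, adjusted p = 0.0189) and with the replicate block (0.022). The other immune genes named by the same rule had lower values in aged libraries: Ifngr1, a subunit of the interferon gamma receptor, with 0.83 and 1.74 CPM (-0.92 ± 0.36), and Stat3, a transcription factor of cytokine signalling, with 0.712 and 1.33 CPM (-0.76 ± 0.37). Smarca2, a chromatin remodeller ATPase, had 0.509 and 1.6 CPM (-1.42 ± 0.41) and passed without young 1 (edgeR quasi-likelihood test, adjusted p = 0.0349) and with the block (0.00211), as Zfp488 did with the block (1.14 ± 0.33 without it; 0.0121). Keap1, the sensor of oxidative stress, had 11.7 and 15.1 CPM (-0.34 ± 0.14), Apoa1, the main protein of high-density lipoprotein, 16.7 and 19.4 CPM (-0.21 ± 0.13), and Klf4, a factor of differentiated epithelium, 8.12 and 10 CPM (-0.27 ± 0.15) in aged and young libraries.

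The remaining list members named by p-value were not called either, and their log2 fold changes pointed both ways. Among metabolic genes, the carboxylesterases Ces2a and Ces1f had -0.38 ± 0.19 and -0.27 ± 0.16, and the members of Hadha, an enzyme of fatty acid oxidation, had -0.29 ± 0.25 and -0.32 ± 0.34. The transcription factors Gfi1 and Foxa3 had -0.37 ± 0.18 and 0.33 ± 0.17. Mdm2, the ubiquitin ligase of p53, had -0.61 ± 0.31, and the DNA repair genes Xrcc1 and Xpc had 0.49 ± 0.27 and 0.55 ± 0.39. Lgals4, a galectin, and Krt20, a keratin of differentiated enterocytes, had 0.36 ± 0.18 and 1.01 ± 0.56. The chromatin genes Atrx and Brd2 had 0.80 ± 0.40 and -0.20 ± 0.11. The members of Atp5d, an ATP synthase subunit, had 0.32 ± 0.16 and 0.16 ± 0.12, and Rps19, a ribosomal protein, had -0.24 ± 0.16. The zinc finger genes Zfp408 and Zfp667 had 0.42 ± 0.17 and 0.53 ± 0.25.

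The most accessible member of several lists had no called difference between ages. They were chosen by level after the values were seen. Hnf4a, a master factor of enterocytes, had a member of 70.7 ± 4.36 CPM in aged and 70 ± 2.83 CPM in young libraries (SD, n = 3). Il22ra1, a subunit of the interleukin 22 receptor, had 61.9 ± 4.08 and 60.8 ± 3.62 CPM. Junb, an AP-1 subunit, had 54 ± 3.35 and 54.2 ± 3.34 CPM, Krt8, a keratin of simple epithelia, 51.1 ± 2.93 and 46.3 ± 2 CPM, and Vil1, the villin of microvilli, 40.9 ± 4.91 and 39.7 ± 1.34 CPM. None of these 5 was called. No promoter peak was credited to Vil1, which does not show that its start was closed, since a peak there may be credited to another TSS. Its accessible member lay 366 bases beyond its 3′ end.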

How the data were processed

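ATAC-seq was measured in 3 aged and 3 young libraries. The authors deposited 1 table of read counts per consensus peak, made with featureCounts 2.0.1 per the submitters' processing notes, which also name Trim Galore 0.6.4, BWA 0.7.17-r1188, Picard 2.23.1, MACS2 2.2.7.1 and the build GRCm38. Lanes of a library share 1 count column. Not given in the sources used here were the annotation release, peak-caller settings, pooling for peak calls and any read shift for the transposase. Peak width and distance to the TSS were taken from the deposited annotation. The distance rule, members, lists and named genes were chosen with earlier results of these data known.

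All peaks were fitted in R 4.3.3 with edgeR 4.0.16 (filterByExpr, TMM, robust quasi-likelihood test, age only), and p-values were adjusted by Benjamini-Hochberg over 129588 peaks. CPM used TMM library sizes, and SE is the log2 fold change over the root of F. Scripts were tested on simulated data. Named were the 12 members per direction with the smallest p among called peaks without overlap, the 6 with the highest CPM, and up to 3 per list with the smallest p plus called ones. Among those chosen by p-value over all members and by CPM, 1 higher member and 1 of the 6 are not reported here. Of 642 list genes, 609 were in the annotation. Alternatives were DESeq2 1.42.0, its size factors, no count filter, other distance and p thresholds, each library left out, and the replicate number as a block. Same-numbered libraries deviated together from their group means (r = 0.236, 0.182 and 0.123 for numbers 1, 2 and 4, against -0.194 to 0.0287 for other pairs). The block was run as an alternative for this reason, on a pairing read from the data and not stated in the labels. Deviations within a group cancel out, so positive values for same-numbered pairs by themselves lower those of other pairs. The main fit did not use the block, and its p-values ignore any such pairing. Exact tests used SciPy 1.17.1. Promoter windows, gene ends and strands came from RefSeq (GRCm38.p6). Counts give counting precision only, since PCR copies are not independent molecules.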

Additional observations from a re-analysis of the deposited data

How the results depend on the processing

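With the replicate block, 117 members were called higher and 52 lower, including the 95 called without it, and among the named members without a call Notch2, Sh2d6, Tnf, Fosb, Smarca2 and Zfp488 passed. DESeq2 called 33 higher, and an adjusted p below 0.01 left 31 higher. With a library left out, the count of higher members ran from 30 (without young 2) to 67 and that of lower ones from 23 to 32. The cause was not tested, and the share of all tested peaks called under these settings is not given. The median log2 fold change of the members stayed between 0.004 and 0.019. Per peak instead of per kb, the difference from exon peaks turned to -0.09. With single libraries left out, small differences that were not called changed sign: Gm11175 ran from -0.09 to 0.10, Acvrl1 from -0.07 to 0.06, Mnt from -0.10 to 0.09, and the Hadha peak at its 3′ end from -0.59 to 0.10. No called member changed sign when a library was left out. The depth of young 4, with a median of 12 counts per member against 29 to 45 in the others, limits the precision of weak members.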

Other observations

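TTS peaks within 1000 bp of a TSS, which were not members, had 14 calls among 718 tested (8 higher, 6 lower), a share of 1.95% against 1.6% of all tested peaks. Prss32, a serine protease, had a peak of 13.8, 10.2 and 16.4 CPM in aged and 4.67, 5.3 and 5.89 CPM in young libraries (log2 fold change 1.37 ± 0.17; edgeR quasi-likelihood test, adjusted p = 3.62e-06). At Sgsm2 such a peak had 12.8 ± 1.45 CPM in aged and 5.35 ± 0.737 CPM in young libraries (SD, n = 3), and the member beside it had 4.04 and 1.96 CPM, both called higher. At Slc12a9, a membrane transport protein, 2 such peaks were lower, by log2 fold changes of -2.31 and -2.51, while the promoter had 41.7 and 44.5 CPM.

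Within a gene, members did not always move together; the genes in this paragraph were chosen after the values were seen. Sfi1 had 4 members, of which the one with 28.4 CPM in aged and 18.9 CPM in young libraries was called (log2 fold change 0.63) and the others differed by 0.09 to 0.30. St3gal2 had a called member at 3.17 and another, with 38.7 and 40.1 CPM, at -0.07. The 3 members of Lcp1, an actin bundler, were at 1.72, 1.06 and 1.43, and the last was called. Whether these differences within a gene exceed their error was not tested.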
